A study of Homo sapiens with 8 samples.

Results

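Calpains are cysteine proteases that cut a limited number of sites in their substrates when cytosolic calcium rises, so that a substrate is trimmed rather than degraded. The classical enzymes pair a catalytic subunit, CAPN1 or CAPN2, with the shared small subunit CAPNS1, and both are held in check by calpastatin (CAST), a dedicated inhibitor protein. CAPN5, CAPN7, CAPN10 and CAPN15 are non-classical calpains, which keep the protease core but lack the calcium-binding penta-EF-hand domain through which CAPN1 and CAPN2 bind CAPNS1. These 8 genes, of 58884 in the deposited table, are described here. The set was chosen by the normalized counts of CAPN5, whose level was much higher in treated cells of the same comparison, so its difference is given as a description without a test. The other 7 complete the core of the calpain system around it. Every member averaged 10 or more normalized counts over the 8 libraries, the limit under which a gene is reported as not measurable.

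The cells were C4-2, an established line of castration-resistant prostate cancer that descends from the human line LNCaP, grown in RPMI 1640 with 10% FBS. A group of 4 libraries came from cells given 1 µM DTHIB, also called E12 and labelled as a direct inhibitor of the heat shock transcription factor HSF1, for 48 h. The other 4 came from cells given the solvent DMSO for the same time. The labels do not say whether the 4 libraries of a group came from separate cultures, so the p-values measure the spread between these libraries, which may be technical. All libraries come from a single cell line, a single dose and a single time.

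Library totals were 29499458 to 30926053 reads with DMSO and 27229291 to 29159387 with DTHIB. These are reads recovered from the normalized counts and summed over all genes listed. Of 10 luminal prostate markers all were measurable, led by KLK3, the gene of prostate-specific antigen, at a mean of 80218 normalized counts. Their summed level was 247802.1 to 253305.5 normalized counts in DMSO and 302489.3 to 309322.3 in DTHIB. Basal markers (3 of 5 measurable) summed to 125.4 to 142.7 in DMSO and 67.9 to 74.8 in DTHIB. Fibroblast and smooth muscle markers (2 of 7 measurable, mostly COL1A1) summed to 980.2 to 1090.0 and 1215.9 to 1456.0. Markers of endothelium (1 of 4 measurable), blood cells (2 of 6, HBB at 0) and neuroendocrine cells (2 of 6, INSM1 at 0) summed to at most 192.8 in any library. The luminal, basal and fibroblast sums did not overlap between the groups, and their part in the results was not tested. In bulk RNA, fewer cells of a kind and less RNA per cell cannot be told apart.

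The 6 catalytic members share the stretch of coding sequence around the catalytic cysteine, shown here to let them be compared. Each stretch is 27 bases, 5′ to 3′, read from the GENCODE 29 transcript with the longest open reading frame on GRCh38, with the cysteine codon in capitals.
CAPN1: gcactgggggacTGCtggctcttggcg
CAPN2: gccctgggtgacTGCtggctgctggca
CAPN5: caggtgggcaacTGCtggtttgtggca
CAPN10: ctgctgggggatTGCtggttcctgtgt
CAPN15: ctgctggggaacTGCtggttcctgagc
CAPN7: atagtatcggatTGCtcctttgtggca
The first 5 were found with 1 pattern of codons, which CAPN7 did not match. CAPN7 was found with a second pattern written for its own site, and each of the 6 reading frames held 1 match. The codon is number 115 of 714 in CAPN1, 105 of 700 in CAPN2, 121 of 680 in CAPN5, 73 of 672 in CAPN10, 552 of 1086 in CAPN15 and 290 of 813 in CAPN7. It lies at chr11:65183479-65183481 in exon 4 of 22 of CAPN1, chr1:223744105-223744107 in exon 3 of 21 of CAPN2 and chr11:77093757-77093759 in exon 4 of 14 of CAPN5. In the remaining enzymes it lies at chr2:240589418-240589420 in exon 2 of 12 of CAPN10, chr16:549197-549199 in exon 5 of 14 of CAPN15 and chr3:15228989-15228991 in exon 8 of 21 of CAPN7. All are on the plus strand. The first pattern had no match in the reading frames of CAPNS1 (322 codons) or CAST (791 codons), neither of which is a protease. The second pattern was not searched in them, so these searches do not separate proteases from the other members.

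CAPN5 had the largest difference of the 8, and the 5 other members that passed the test differed by much less. Among the 7 members besides CAPN5, 3 were higher in DTHIB (CAPN1, CAPNS1 and CAPN7), 2 were lower (CAPN2 and CAPN15) and 2 did not pass (CAST and CAPN10). The test was limma on log2(normalized count + 1) with a Benjamini-Hochberg adjusted p under 0.05. The background is high in these data: 64.6% of 17194 tested genes passed, 31.0% higher and 33.7% lower, so 5 of 7 is close to the share over all genes. The 2 groups of 4 values did not overlap for 5 of the 7, against 57.9% of all tested genes (27.1% higher, 30.8% lower). On recovered reads edgeR and DESeq2 each called 5 of the 7 as well, against 64.7% and 59.8% of all tested genes. The median absolute log2 fold change of the 7 was 0.13 and that of all genes tested, which include far lower ones, was 0.27; CAPN15 was above the latter value and the other 6 below it. Their signed median was 0.09, against -0.01 over all genes tested.

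**Figure D1:**
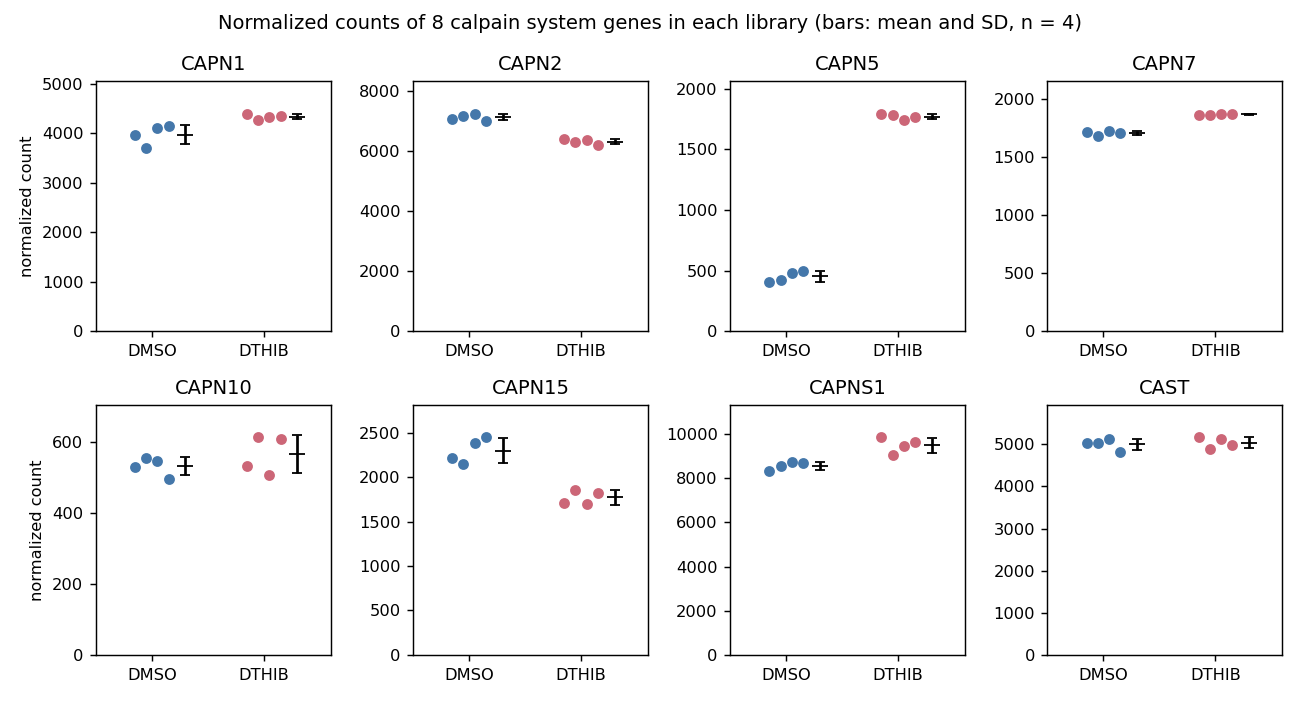
Normalized counts of the 8 genes in each library; each panel has its own linear y axis from 0, points are libraries 1 to 4 of DMSO (blue) and DTHIB (red) from left to right, and bars are the mean and SD of 4 libraries. CAPN5 lies at 409 to 499 in DMSO and 1741 to 1793 in DTHIB, CAPN2 and CAPN15 are lower in every DTHIB library, and the groups overlap in CAPN10 and CAST.

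Of the classical catalytic subunits, CAPN1 (ENSG00000014216, chr11:65180566-65212006 on GRCh38), also called mu-calpain for the low calcium level it needs, had 3959, 3701, 4103 and 4143 normalized counts in DMSO libraries 1 to 4. In DTHIB libraries 1 to 4 it had 4400.0, 4278, 4339 and 4348. Every DTHIB value lay above every DMSO value, and the DMSO values were the more scattered. The means were 3977 ± 200 in DMSO and 4341 ± 49.8 in DTHIB (SD, n = 4 libraries per group, as in all such values). CAPN1 rose by 0.13 on the log2 scale (SE 0.034, limma adjusted p = 0.00377), and by 0.22 under quantile normalization (limma adjusted p = 2.64e-05). Part of its exons lie opposite an antisense gene, AP003068.2, which had 98.4 ± 6.90 and 113 ± 8.21 normalized counts and did not pass the test (log2 fold change 0.20, limma adjusted p = 0.101).

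CAPN2 (ENSG00000162909, chr1:223701593-223776018), m-calpain, needs more calcium than CAPN1 in the test tube. Its DMSO libraries had 7083, 7184, 7249 and 7004 normalized counts, and its DTHIB libraries 6404, 6300.5, 6374 and 6195. All DTHIB values were below all DMSO values. CAPN2 fell by 11.4%, from 7130.2 ± 108 to 6318 ± 93.0 (log2 fold change -0.17, SE 0.026, limma adjusted p = 1.89e-05). Its log2 fold change was smaller, at -0.11, under quantile normalization (limma adjusted p = 0.000658) and -0.10 after removal of a trend with length and GC content, an alternative chosen after seeing the data (limma adjusted p = 0.00285). CAPN1 and CAPN2 thus differed in opposite directions.

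CAPNS1 (ENSG00000126247, chr19:36139575-36150353), the small subunit that stabilises both enzymes, had 8320, 8562, 8716 and 8680 normalized counts in DMSO. The DTHIB libraries had 9850, 9060, 9458 and 9619. The groups did not overlap, although DTHIB library 2 came close to the highest DMSO libraries. Its mean rose by 10.8%, from 8569 ± 179 to 9497 ± 333 (log2 fold change 0.15, SE 0.030, limma adjusted p = 0.000376). Without the length and GC trend the log2 fold change was 0.09 (limma adjusted p = 0.0163).

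CAST (ENSG00000153113, chr5:96525267-96779595) encodes calpastatin, which binds several calcium-loaded calpain molecules at once. Its DMSO libraries had 5034, 5027, 5127 and 4807 normalized counts, and its DTHIB libraries 5166, 4899, 5131 and 4979. The groups were interleaved. The means were 4999 ± 136 and 5044 ± 126, with a log2 fold change of 0.01 (95% interval -0.05 to 0.08, limma adjusted p = 0.72). This interval holds neither the value of CAPN1 nor that of CAPN2, but the difference between the genes was not tested. The call depended on the scaling: under quantile normalization CAST had a log2 fold change of 0.11 (limma adjusted p = 0.00141), and without the length and GC trend of 0.11 (limma adjusted p = 0.00391). CAST overlaps exons of ERAP1, an aminopeptidase gene on the opposite strand, which had 610 ± 10.9 and 645 ± 38.7 normalized counts (log2 fold change 0.08, limma adjusted p = 0.18).

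CAPN5 (ENSG00000149260, chr11:77066941-77126155) encodes the calpain most like the nematode sex determination protease TRA-3, and dominant variants of it cause an inflammatory disease of the eye. Its DMSO libraries had 409, 420.1, 481 and 499 normalized counts. The DTHIB libraries had 1793, 1778, 1741 and 1763. Every DTHIB library lay far above every DMSO library, with no value in between. The mean was 452 ± 44.5 in DMSO and 1769 ± 22.3 in DTHIB, 3.91 times the DMSO level, with a log2 fold change of 1.97 (SE 0.057). By log2 fold change it stood at rank 46 of the 17194 genes tested, and at rank 13 of the 11890 with a mean of at least 100 normalized counts. The authors' deposited table gives a log2 fold change of 1.95. Since the set was chosen for this difference, no p-value is given.

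The spread of CAPN5 differed between the groups. In DMSO its coefficient of variation was 9.84%, where counting error alone gives 4.63%; in DTHIB it was 1.26%, where counting error gives 2.40%. DMSO libraries 1 and 2 were the low ones and libraries 3 and 4 the high ones. CAPN1, CAPN15 and CAPNS1 also had DMSO libraries 3 and 4 above libraries 1 and 2, while CAPN2, CAPN7, CAPN10 and CAST did not.

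Most genes around CAPN5 were close to 0. OMP, the olfactory marker protein gene that lies within CAPN5 on the same strand without overlapping its exons, averaged 1.46 ± 1.26 normalized counts with DMSO and 2.78 ± 1.47 with DTHIB. MYO7A, an unconventional myosin that starts 2108 bases downstream, had 5.54 ± 2.49 and 10.2 ± 3.53. Upstream, B3GNT6 had 1.20 ± 1.81 and 0.51 ± 0.59, and GDPD4, downstream of MYO7A, had 0 in every DMSO library and 0.26 ± 0.52 in DTHIB. The measurable neighbour was ACER3, an alkaline ceramidase gene 40143 bases upstream, which was lower in DTHIB, at 1661 ± 64.0 against 1552 ± 76.6 (log2 fold change -0.10, limma adjusted p = 0.0472). No 50-base window of a CAPN5 transcript occurs in a transcript of any other GENCODE 29 gene. No such window was shared between any 2 members.

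Of the other non-classical calpains, CAPN7 was higher by far less than CAPN5, CAPN10 did not pass and CAPN15 was lower. CAPN7 (ENSG00000131375, chr3:15206152-15252918), which binds components of the membrane-remodelling ESCRT machinery, had 1717, 1684, 1729 and 1707 normalized counts with DMSO and 1859, 1866, 1874 and 1874 with DTHIB. The groups did not overlap and were very tight. It rose from 1709 ± 19.0 to 1868 ± 7.27 (log2 fold change 0.13, SE 0.031, limma adjusted p = 0.00164). The log2 fold change was larger under quantile normalization (0.21, limma adjusted p = 1.09e-05) and without the length and GC trend (0.23, limma adjusted p = 5.35e-06). The scatter was below counting error in both groups, with coefficients of variation of 1.11% and 0.389% where counting gives 2.38% and 2.34%.

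CAPN10 (ENSG00000142330, chr2:240586716-240617705), known from genetic studies of type 2 diabetes, stood at 530, 555, 546 and 497 normalized counts with DMSO and 532, 614, 508 and 610.4 with DTHIB. DTHIB libraries 2 and 4 lay above all DMSO libraries, and libraries 1 and 3 lay among them. The means were 532 ± 25.5 and 566 ± 53.9, a log2 fold change of 0.09 that did not pass (95% interval -0.05 to 0.22, limma adjusted p = 0.254). CAPN10 overlaps exons of GPR35, a G protein-coupled receptor gene on the same strand, which shares 6.37% of the 50-base windows of CAPN10 and was higher in DTHIB, at 24.5 ± 2.37 against 38.3 ± 2.65 (log2 fold change 0.63, limma adjusted p = 0.00418). The sources used here do not give how reads in shared exons were assigned.

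CAPN15 (ENSG00000103326, chr16:527717-554636), the homologue of the fly gene small optic lobes, had the largest fall of the 8. Its values were 2217, 2143, 2381 and 2447 normalized counts with DMSO and 1705, 1857, 1702 and 1824 with DTHIB. All DTHIB libraries were below all DMSO libraries. The mean fell by 22.9%, from 2297 ± 141 to 1772 ± 80.6 (log2 fold change -0.37, SE 0.044, limma adjusted p = 1.25e-06). Its exons overlap those of an antisense gene, Z97986.1, which was listed at 0 in all 8 libraries.

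**Figure D2:**
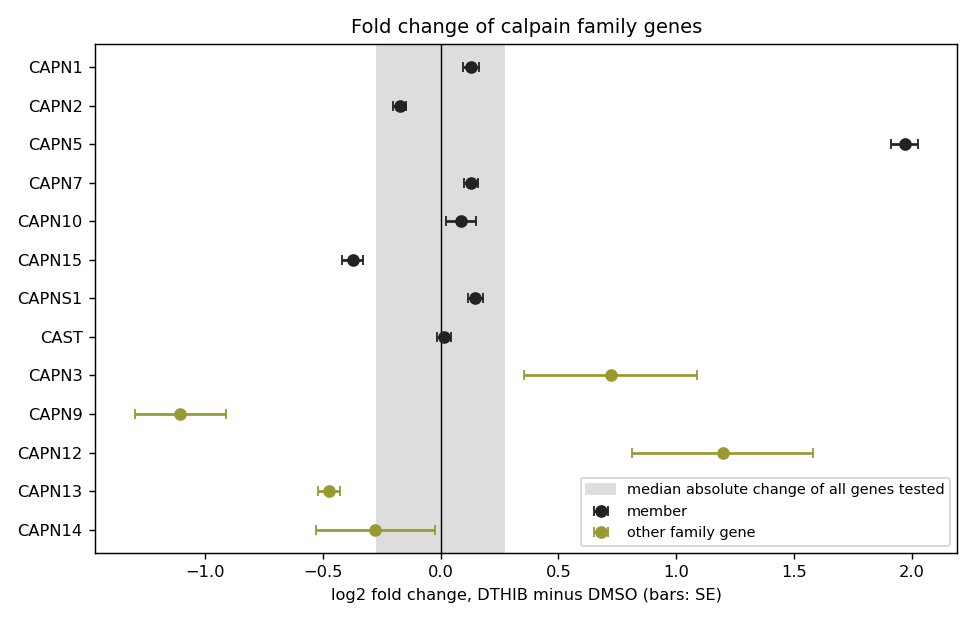
Log2 fold change of the 8 members (black) and the 5 other measurable family genes (olive), DTHIB minus DMSO, on the log2(normalized count + 1) scale; bars are the standard error and the grey band spans the median absolute change of all genes tested (0.27). CAPN5 stands at 1.97, CAPN15 at -0.37 lies outside the band, and the other 6 members lie inside it.

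Levels can be compared between genes only per length, so normalized counts were divided by the length of each gene's merged exons in kilobases. On this scale CAPNS1 was by far the most abundant member, at 2464 ± 51.4 in DMSO and 2731 ± 95.6 in DTHIB. CAPN2 followed at 811 ± 12.31 and 719 ± 10.6, then CAPN1 at 527 ± 26.5 and 575 ± 6.59 and CAST at 402 ± 10.9 and 405 ± 10.1. These first 4 places were the same in both groups. Next in DMSO came CAPN7 at 305 ± 3.39 and CAPN15 at 288 ± 17.7, whose ranges overlapped. CAPN5 at 73.5 ± 7.23 and CAPN10 at 71.2 ± 3.42 were last and did not differ beyond their spread.

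In DTHIB, CAPN5 reached 287 ± 3.63 per kilobase, between CAPN7 at 334 ± 1.298 and CAPN15 at 222 ± 10.1, while CAPN10 stayed last at 75.8 ± 7.21. CAPN5 thus moved from the seventh to the sixth place and above CAPN15. The ratio of CAPN5 to CAPN15 was 0.255 ± 0.011 in DMSO and 1.297 ± 0.059 in DTHIB. With the length of the longest transcript instead, CAPN5 came below CAPN10 in DMSO and CAPN15 came above CAPN7, and the order in DTHIB was the same.

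Among the 6 catalytic members, CAPN5 made up 3.24, 3.38, 3.68 and 3.85% of the summed per-length level in the DMSO libraries and 13.1, 13.0, 12.9 and 13.0% in the DTHIB libraries. Its share depended on the length used: with the longest transcript it was 2.50 ± 0.197% in DMSO and 9.42 ± 0.080% in DTHIB. CAPN2 held the largest share in both groups, 39.1 ± 1.09% in DMSO and 32.5 ± 0.514% in DTHIB. CAPN1 held 25.4 ± 0.765% and 26.0 ± 0.325%, and CAPN15 13.9 ± 0.563% and 10.0 ± 0.436%. The shares of CAPN2 and CAPN15 were lower in every DTHIB library, and those of CAPN10 overlapped between the groups at 3.43 ± 0.212% and 3.42 ± 0.318%. CAPN7 held 14.7 ± 0.242% and 15.1 ± 0.119%, narrowly higher in every DTHIB library. The shares of CAPN1 overlapped, but with the longest transcript they were higher in every DTHIB library. The summed level of the 6 was 2075 ± 48.9 per kilobase in DMSO and 2212 ± 10.1 in DTHIB, without overlap. It includes CAPN5, at 73.5 in DMSO and 287 in DTHIB, so it does not show that the other catalytic members rose together. A rise of CAPN5 by itself also lowers the shares of the others. The shares and the sum include the difference that chose CAPN5 and carry no test. They leave out CAPN13, a calpain outside the set, at 230 ± 6.51 per kilobase of merged exons in DMSO and 166 ± 10.6 in DTHIB.

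**Figure D3:**
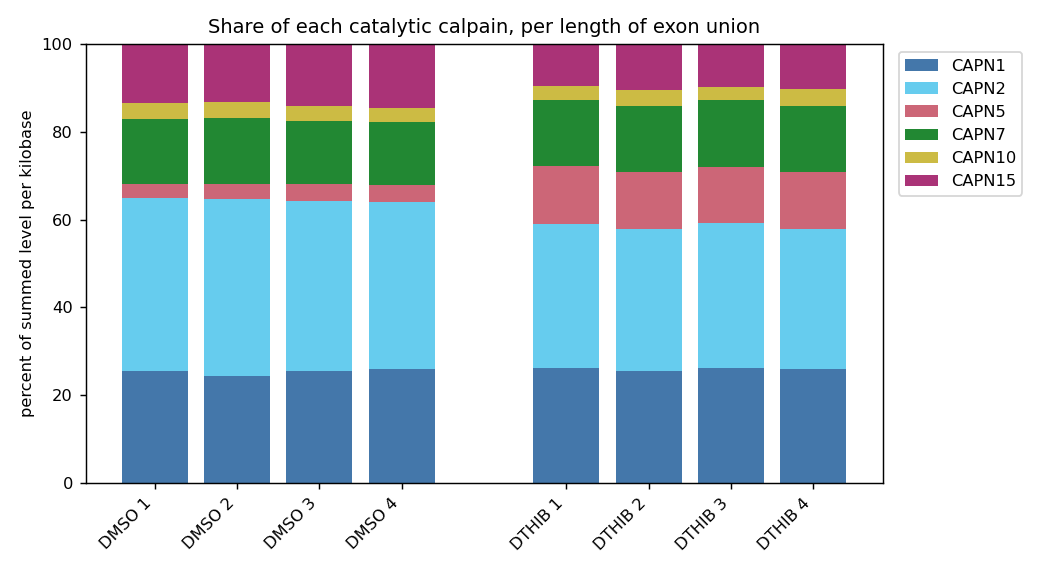
Share of each of the 6 catalytic members in their summed level per kilobase of merged exons, in percent, in each of the 8 libraries (stacked bars from 0 to 100). The CAPN5 segment is 3.24 to 3.85% in DMSO and 12.9 to 13.1% in DTHIB, and the CAPN2 segment is smaller in all DTHIB libraries.

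The balance within the classical enzymes also differed between the groups. Its ratios restate the differences of the single genes above and carry no test. The ratio of CAPN2 to CAPN1 was 1.54 ± 0.090 in DMSO (1.45 to 1.67) and lay between 1.22 and 1.27 in DTHIB (SD 0.019), on the per-length scale. The groups did not overlap, with CAPN2 ahead of CAPN1 in every library. The ratio of the summed catalytic subunits CAPN1 and CAPN2 to CAPNS1 was 0.543 ± 0.011 in DMSO (0.531 to 0.556) and 0.474 ± 0.014 in DTHIB (0.463 to 0.493). Their ratio to CAST was 3.33 ± 0.107 and 3.19 ± 0.050, and the groups overlapped. The values depended on the length used. With the longest transcript, CAPN2 over CAPN1 was 1.34 ± 0.078 in DMSO and 1.09 ± 0.016 in DTHIB. The ratio to CAPNS1 was then 0.675 ± 0.014 and 0.594 ± 0.018, and neither of these 2 ratios overlapped between the groups. All of these are ratios of RNA levels and say nothing of protein.

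The rest of the calpain family comprises 10 genes, of which 5 were measurable. CAPN13, an epithelial calpain, was the most abundant of these, with 1157, 1197, 1239 and 1187 normalized counts with DMSO and 838, 940.1, 814 and 857 with DTHIB. Its groups did not overlap, and it fell by 27.9%, or -0.47 on the log2 scale (limma adjusted p = 1.27e-07). CAPN9, known from the digestive tract, was low and fell from 49.2 ± 7.12 to 22.5 ± 4.87 (log2 fold change -1.11, limma adjusted p = 8.89e-05). Among the 8 members and the 5 other measurable family genes, these had the lowest log2 fold changes.

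CAPN12, known from the hair follicle, had 3.83, 6.70, 5.79 and 12.0 normalized counts with DMSO and 7.29, 17.7, 19.97 and 26.9 with DTHIB. Its groups overlapped, and it rested on 29 and 71 reads in all. It passed as higher (log2 fold change 1.20, limma adjusted p = 0.0116), but not without DTHIB library 4 (0.97, limma adjusted p = 0.0526). The muscle calpain CAPN3 had 7.79 ± 2.98 and 14.0 ± 6.32 and did not pass (log2 fold change 0.72, limma adjusted p = 0.0943), except without DTHIB library 1 (1.03, limma adjusted p = 0.0161). CAPN3 was likewise under the limit in DMSO and was tested only through its DTHIB level. CAPN14, known from the oesophagus, had 16.7 ± 4.13 and 13.5 ± 2.34 and did not pass (log2 fold change -0.28, limma adjusted p = 0.35).

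CAPN3, with an overall mean of 10.9, was just inside the limit for measurable genes, and CAPN6, with 3.22, was the nearest below it. CAPN11 and CAPN8 had means of 2.95 and 1.11. CAPNS2, the second small subunit gene, had a single read in the 8 libraries, and ADGB, a large globin with a calpain-like domain, was listed at 0 in all. Apart from the 8 members and CAPN13, no family gene averaged above 50 normalized counts in either group.

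Genes around the calpain system were counted in 7 lists, each read against the 31.0% higher and 33.7% lower over all genes tested and the overall median of -0.01. Of 4 penta-EF-hand proteins that are not calpains, 1 rose and 1 fell, with a list median of -0.10. PDCD6 (ALG-2), a calcium sensor of membrane traffic, rose from 209 ± 10.2 to 279 ± 39.4 normalized counts (log2 fold change 0.41, limma adjusted p = 0.000837). Its partner PEF1 (peflin) fell from 2078 ± 51.8 to 1802 ± 29.4 (-0.21, limma adjusted p = 3.25e-05). Sorcin (SRI, -0.08, limma adjusted p = 0.067) and grancalcin (GCA, -0.11, limma adjusted p = 0.0701) did not pass. All 4 were called without DTHIB library 3.

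Among 30 reported calpain substrates, 10 rose, 14 fell and 6 did not pass, with a median of -0.13. PPP3CA, the catalytic subunit of the calcium-dependent phosphatase calcineurin, rose from 30212 ± 961 to 40758 ± 1404 normalized counts (log2 fold change 0.43, limma adjusted p = 2.93e-09). The microtubule protein MAP2 fell from 4270.1 ± 180 to 3040 ± 44.99 (-0.49, limma adjusted p = 9.11e-10), and beta-catenin (CTNNB1) from 13334 ± 177 to 10539 ± 276 (-0.34, limma adjusted p = 8.98e-09). These are RNA levels of the substrates, not measures of their cleavage.

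Calcium itself enters, is stored and is pumped out through 24 listed genes, of which 11 rose, 10 fell and 3 did not pass, with a median of 0.02. The epithelial calcium channel TRPV6 rose from 594 ± 68.7 to 1128 ± 42.7 normalized counts (log2 fold change 0.93, limma adjusted p = 1.77e-09). TRPM4, a calcium-activated channel that itself passes sodium and potassium, rose from 1725 ± 78.6 to 2627 ± 58.3 (0.61, limma adjusted p = 2.24e-10). MCU, the pore of the mitochondrial calcium uniporter, fell from 1401 ± 59.0 to 954 ± 44.96 (-0.56, limma adjusted p = 8.27e-09). ORAI1, the plasma membrane channel of store-operated entry, fell from 1370.0 ± 63.4 to 981 ± 15.5 (-0.48, limma adjusted p = 1.72e-08).

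Of 17 calcium-binding sensors and buffers, 5 rose, 7 fell and 5 did not pass, with a median of 0.03. CALM3, which encodes the calcium sensor calmodulin, fell from 10511 ± 273 to 6815 ± 348 normalized counts (log2 fold change -0.63, limma adjusted p = 7.75e-11). The calmodulin-dependent kinase kinase CAMKK2 fell from 5235 ± 138 to 3906 ± 85.9 (-0.42, limma adjusted p = 1.72e-09). The reticulum protein RCN1 rose from 2481 ± 32.3 to 3984 ± 127 (0.68, limma adjusted p = 4.92e-12).

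Other families of cysteine proteases were set beside the calpains. All 8 measurable caspases of 9 listed passed, 6 lower and 2 higher, with a median of -0.30; this count was 5 with DESeq2 and also 5 without DMSO library 3. The initiator caspase CASP8 fell from 1187 ± 20.5 to 894 ± 37.9 normalized counts (log2 fold change -0.41, limma adjusted p = 1.42e-07), and CASP2 from 2593 ± 78.5 to 2202 ± 87.5 (-0.24, limma adjusted p = 1.91e-05).

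Of 11 measurable cysteine cathepsins and cystatins among 14 listed, 6 rose, 4 fell and 1 did not pass, with a median of 0.12. The lysosomal protease CTSV fell from 678 ± 63.9 to 242 ± 30.1 normalized counts (log2 fold change -1.48, limma adjusted p = 1.29e-10), and CTSC fell by 0.40 on the log2 scale (limma adjusted p = 9.79e-07). CTSF rose (0.43, limma adjusted p = 7.06e-09), as did the secreted cathepsin inhibitor cystatin C (CST3, 0.47, limma adjusted p = 3.28e-08).

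**Figure D4:**
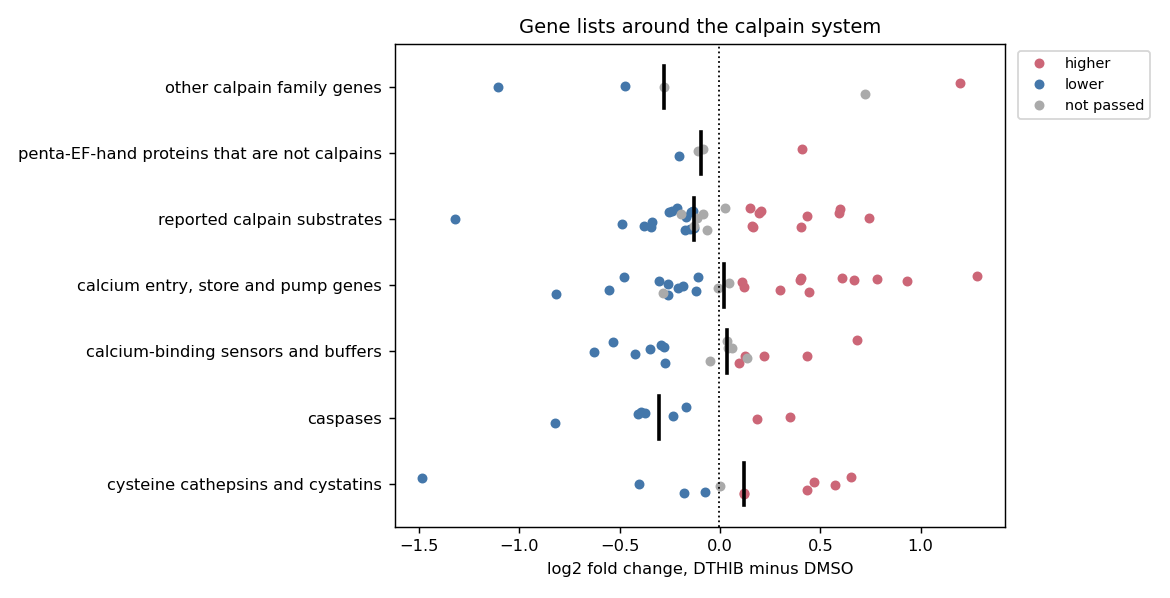
Log2 fold change, DTHIB minus DMSO, of every tested gene in 7 lists around the calpain system (red higher, blue lower, grey not passed; vertical jitter carries no meaning); the thick line is each list's median and the dotted line the median of all genes tested (-0.01). Genes lie on both sides of 0 in every list, and list medians run from -0.30 for caspases to 0.12 for cathepsins and cystatins.

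The genes most like CAPN5 were sought among 11642 others with a symbol and 100 or more normalized counts on average, by Pearson's r of log2(normalized count + 1) over the 8 libraries. The 5 highest were GABRA3, a GABA receptor subunit (r = 0.9992), ZFAND3 (0.9991), TMCO3 (0.9989), the long non-coding RNA LINC00662 (0.9989) and RNF41, a ubiquitin ligase (0.9988). GABRA3 averaged 223 ± 13.6 normalized counts with DMSO and 456 ± 7.32 with DTHIB, with a log2 fold change of 1.03. The other 4 had log2 fold changes of 0.56 for ZFAND3, 0.66 for TMCO3, 0.90 for LINC00662 and 0.80 for RNF41, all smaller than that of CAPN5. In all, 202 genes reached an r of 0.99 and 1368 an r of 0.95. The points are 2 groups of 4 libraries with shared size factors. So r is high for any gene with tight groups far apart that is higher in DTHIB, and it is given as a description.

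Promoter windows of 300 bases from RefSeq (GRCh38.p14) were present for 7 members, 15 windows in all, and not for CAPN5. Both strands were searched for a pair of heat shock element units, GAANNTTC, and for the core of the C/EBP-ATF response element, TGATGNAA. None of the 15 windows held either. Among 35116 windows of all genes 6.77% and 3.62% held them, shares so low that a count of 0 in 15 does not set the members apart.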

How the data were processed

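RNA of C4-2 cells was measured in 4 DMSO and 4 DTHIB libraries, with groups taken from the labelled treatment. Per the submitters' processing notes, the build was GRCh38 and the tools were HISAT2 2.1.0, featureCounts 1.6.3, Trimmomatic 0.36.5, DESeq2 2.11.40.2 and StringTie 1.3.4. The sources used here do not give their order, settings, annotation release or strand setting. By its name, the signal the authors deposited per gene and library is a DESeq2-normalized count, a read count over a library's size factor. A second table that the authors deposited holds the mean normalized count (a signal), log2 fold change with its standard error, Wald score, p-value and adjusted p-value; the sign of its log2 fold change was that of DTHIB minus DMSO in 99.96% of genes with a mean of at least 10.

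Identifiers were matched to symbols (41967 of 58884) and GENCODE 29 positions (58611). The test was limma 3.58.1 (R 4.3.3; lmFit, eBayes with an expression trend) on log2(normalized count + 1), two-sided, without covariates, over the 17194 genes with a mean of at least 10; an adjusted p under 0.05 (Benjamini-Hochberg) was called higher or lower. Fold changes on this scale understate those of low genes. The alternatives tried were TMM and quantile scaling, pseudocounts of 0.5 and 5, a filter at a mean of 50 or none, a replicate block, each library left out, and edgeR 4.0.16 and DESeq2 1.42.0 on reads recovered from the values (100% of them whole multiples of a step within 0.01). In 3 libraries that step is so near 1 that rounding could not be told from recovery by the step alone, so these reads serve as alternatives only. On them edgeR called 11130 genes and DESeq2 10283. A trend with length and GC content (splines with 4 degrees of freedom) was removed in an alternative added after seeing the data.

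Pairs of libraries gave a chi-square per gene of 2.39 to 5.19 inside a group and at least 51.9 across groups, so no pair agreed within sampling noise. Counting errors cover the drawing of reads only. Members and gene lists were chosen with earlier results of these data known. Named genes are all members, measurable family genes, up to 4 genes per list with the smallest adjusted p, the 5 most like CAPN5, genes overlapping a member or next to CAPN5, and the top luminal marker; 4 genes that this rule names are not reported here. No protein sequences were used here.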

Additional observations from a re-analysis of the deposited data

How the results depend on the processing

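Over 18 alternatives 5 of the 7 members besides CAPN5 passed in each, except 6 under quantile normalization and after removal of a length and GC trend, where CAST was added. CAST changed sign without DMSO replicate 4 (-0.0057, limma adjusted p = 0.887) and ranged from -0.0057 to 0.0269 with 1 library left out. None of the other 6 changed its call or sign, but their sizes moved: CAPN1 ranged from 0.09 to 0.22, CAPN2 from -0.18 to -0.10, CAPN7 from 0.12 to 0.23, CAPNS1 from 0.09 to 0.18, CAPN15 from -0.52 to -0.29 and CAPN10 from 0.04 to 0.14 (adjusted p 0.0693 to 0.576). Quantile normalization moved CAPN1, CAPN2 and CAPN7 by over 1.5 times, and removal of the length and GC trend moved CAPN2, CAPN7, CAPNS1 and CAPN10 by as much; the cause was not tested. The log2 fold change of CAPN5 was 1.92 to 2.03. With the longest transcript as length, the share of CAPN5 among catalytic members was 2.50% in DMSO and 9.42% in DTHIB. Genes called numbered 9483 to 11557, and 73 to 81 genes of the lists were called. The 9483 and 73 came from the filter at a mean of 50 and the 11557 from no filter. These settings change which genes are tested. With 1 library left out, genes called numbered 10367 to 10893. Same-numbered libraries did not deviate together (correlations -0.0715, 0.0107, 0.0144 and 0.0018); the replicate block called 5 members and 11058 genes. No scaling moved the median of all genes by over 0.03. Counts limit CAPN3, CAPN9, CAPN12 and CAPN14 most, and genes under a mean of 10 were not measurable.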
